A study of Caenorhabditis elegans with 4 samples.

Results

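The lin-15 locus of Caenorhabditis elegans holds 2 tandem genes, lin-15B and lin-15A. This account describes the ChIP-seq peaks of tagged LIN-15B protein that were listed at the locus. A peak was counted at the locus when it overlapped either gene, or the 2000 bp before lin-15B or after lin-15A, by at least 1 bp. The locus carried 1 of the 383 peaks that passed the authors' reproducibility step (the optimal list) and 6 of the 8636 peaks listed for the pool of all replicates. The lists of single replicates, which hold 30000 peaks each, placed 12, 15 and 10 peaks there in replicates 1, 2 and 3, a mean of 12.3 ± 2.52 (SD, n = 3). The pooled and replicate lists are named as peaks and background put into the reproducibility step. An entry in them is therefore not by itself a binding site. At the locus the −log10 q-value ran from 0.237 to 0.963 for pooled peaks and from 0.0493 to 3.06 for replicate peaks. The 2 genes are set beside the 19973 protein-coding genes of the nuclear chromosomes.

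All samples were whole L4 larvae of mixed sex from strain OP184, with the genotype unc-119(tm4063) III; wgIs184, in which LIN-15B with a GFP-FLAG tag at its C-terminus is expressed from the wgIs184 transgene. They are 4 libraries of 1 group, from 3 biological replicates, since replicate 3 was sequenced as 2 technical libraries with a single peak list. There was no second strain or condition, so every value here is a description with no test. The strain keeps its own lin-15 locus and also carries the tagged gene on the transgene. The lists hold no reads, so signal from the native copy and from the transgene copy cannot be told apart. No counts are given and the sequencing depth of each replicate is unknown.

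The lin-15 genes are known from vulval development. Loss of a class A synMuv gene together with a class B synMuv gene gives worms with several vulvae, and the original lin-15 mutations with that effect hit both genes of the locus. lin-15B acts in class B and lin-15A in class A. LIN-15B is a nuclear protein with a THAP-type zinc finger, a DNA-binding domain, and it takes part in keeping germline genes silent in somatic tissue. Loss of lin-15B is also known to alter RNA interference and the silencing of transgenes.

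On ce11, lin-15B (WBGene00023497) spans X 15726123 to 15732025 and lin-15A (WBGene00023498) spans X 15731968 to 15735365. Both are on the plus strand, and their annotated spans overlap by 58 bp. Only the lin-15B transcript ZK662.4.2 reaches into lin-15A, through its last exon at 15732021 to 15732025, and ZK662.4.1 ends at 15731861. The locus with its flanks covers 13243 bp. The nearest protein-coding gene on the left is ZK662.5, which ends at 15723851. On the right it is srg-64, a gene of a chemoreceptor family on the minus strand whose 3' end lies at 15736844, inside the right flank. Positions below are distances of the peak summit from the lin-15B start, negative upstream.

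The 2 G+C-rich stretches in the 2000 bp upstream of lin-15B lay under a pooled summit each, and they are shown here with other windows of the locus beside them. The first 3 sequences are the 101-bp windows around the pooled summits at -904 (the optimal peak), -415 and -1541. The fourth is the window around the replicate 2 summit at 5999, in coding exon 1 of lin-15A, and the fifth runs from 250 bp before the lin-15B start to 50 bp after it. Sequences are from the RefSeq plus strand of WBcel235, which has the coordinates of ce11. Capitals mark matches, on either strand, to any of 8 motifs: the E2F-type elements GCGCGAAA and TTCCCGCC, the CHR-type element TTTGAA of the kind bound by the DREAM complex, its variant TTCGAA, the E-box CACGTG, the repeat GAGAGAGA, the G+C box GGGCGG, and the tetramer CGCG. The last may overlap itself and the first.
lin-15B upstream, summit -904, chrX:15725169-15725269: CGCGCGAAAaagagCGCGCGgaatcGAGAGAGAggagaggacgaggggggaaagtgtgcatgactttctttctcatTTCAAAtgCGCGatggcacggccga
lin-15B upstream, summit -415, chrX:15725658-15725758: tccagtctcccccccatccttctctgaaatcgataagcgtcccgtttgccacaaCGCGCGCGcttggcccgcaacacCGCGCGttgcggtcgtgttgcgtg
lin-15B upstream, summit -1541, chrX:15724532-15724632: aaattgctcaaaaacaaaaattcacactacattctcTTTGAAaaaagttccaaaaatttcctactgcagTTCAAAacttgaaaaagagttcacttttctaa
lin-15A exon 1, summit 5999, chrX:15732072-15732172: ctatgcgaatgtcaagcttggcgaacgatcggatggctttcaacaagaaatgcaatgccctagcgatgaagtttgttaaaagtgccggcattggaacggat
lin-15B start region, chrX:15725873-15726172: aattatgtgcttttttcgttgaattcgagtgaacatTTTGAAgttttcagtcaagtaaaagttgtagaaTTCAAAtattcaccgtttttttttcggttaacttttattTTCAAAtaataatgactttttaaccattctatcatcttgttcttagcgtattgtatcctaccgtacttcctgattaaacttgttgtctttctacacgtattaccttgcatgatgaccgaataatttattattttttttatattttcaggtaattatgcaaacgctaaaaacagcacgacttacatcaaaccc

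**Figure D1:**
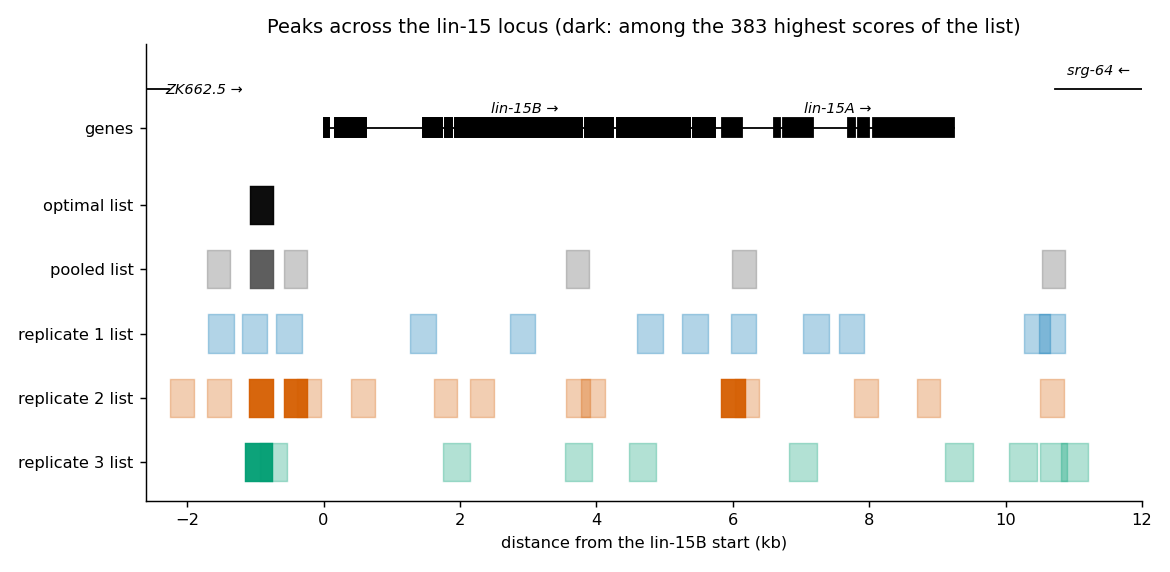
Peaks of the optimal list, the pooled list and replicates 1 to 3 (rows), drawn at their width along the locus, with the distance from the lin-15B start in kb on the horizontal axis and exons as black boxes at the top. Dark boxes are among the 383 highest-scoring peaks of their list: 1 in the optimal and pooled lists at -904 bp, and 0, 3 and 1 in replicates 1, 2 and 3.

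The one optimal peak of the locus lay between ZK662.5 and lin-15B, at X 15725049 to 15725388, with its summit at -904 in intergenic sequence. Its score was 51.1 and its rank 143 in the pooled list, where rank 1 is the highest. The score is the authors' signal value, used here only to rank peaks within a list. The optimal list consists of the 383 highest-scoring pooled peaks, whose lowest score was 28.9. Of the other nuclear optimal peaks 129 scored higher, as did 9 of the 33 optimal peaks on X.

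The replicates placed a peak over this summit at very different ranks. Its score was 6.85 and its rank 2221 in replicate 1, 28.7 and 63 in replicate 2, and 15.1 and 256 in replicate 3. Replicates 2 and 3 thus had it among their own 383 highest-scoring peaks and replicate 1 did not. The 3 replicate summits lay at -1013, -912 and -952, within 109 bp upstream of the pooled summit. The mean log10 rank was 2.52 ± 0.779 (SD, n = 3), which is a geometric mean rank of 329.6. It was 127.0 without replicate 1, 754.0 without replicate 2 and 374.1 without replicate 3, so replicates 1 and 2 pull it in opposite directions. Across the 339 nuclear optimal peaks covered in all 3 replicates the median SD of the log10 rank was 0.338, and 45 had a larger SD than the lin-15B peak. Their median geometric mean rank was 293.5, and 180 of them ranked higher on average.

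Over all 365 nuclear optimal peaks, 66.6% had the summit inside a top-ranked peak (one of the 383 highest) of at least 2 replicates. By number of such replicates, 130 had 3, 113 had 2, 102 had 1 and 20 had 0, and the lin-15B peak is one of the 113. Replicate 2 gave the highest of the 3 ranks at 133 of the 339 peaks covered in all replicates, the lin-15B peak among them. Of the 5 optimal peaks with the most similar ranks (smallest Euclidean distance over the 3 log10 ranks), 4 lay within 2000 bp of a gene start. These genes were tbc-14, a TBC-domain gene, with ranks 1773, 80 and 251 in replicates 1, 2 and 3, dnj-9, a J-domain gene (2649, 96 and 436), hpr-17, a checkpoint gene (4342, 91 and 270), and rps-22, a ribosomal protein gene (1672, 146 and 153). The remaining one, at III 9717254 to 9717593 (2430, 125 and 266), was 2867 bp from the nearest start.

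The distance of 904 bp from the annotated start is long for an optimal peak. The median distance from an optimal summit to the nearest protein-coding gene start was 221.0 bp over the nuclear chromosomes, and 66 of 365 (18.1%) lay farther away than the lin-15B peak. On X it is the median peak, with 16 of 33 optimal peaks farther from a start. An annotated start need not be the point of initiation. In worms many mRNAs receive a spliced leader by trans-splicing, and annotated starts then mark the splice acceptor rather than the promoter. The 6 bases before the start of the lin-15B transcript ZK662.4.1 at 15726129 read TTTCAG, the worm splice acceptor sequence. The same 6 bases preceded 11.5% of the 29784 distinct annotated starts of protein-coding transcripts. They precede neither the other annotated lin-15B start at 15726123, where the bases read TTATAT, nor the lin-15A start. The lin-15A start is preceded by ATTCAG, which also ends in TTCAG, so a splice acceptor there is not excluded. The 904 bp were counted from the start at 15726123, and the median of 221.0 bp was counted from annotated starts as well. Whether trans-splicing bears on the distance was not tested.

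**Figure D2:**
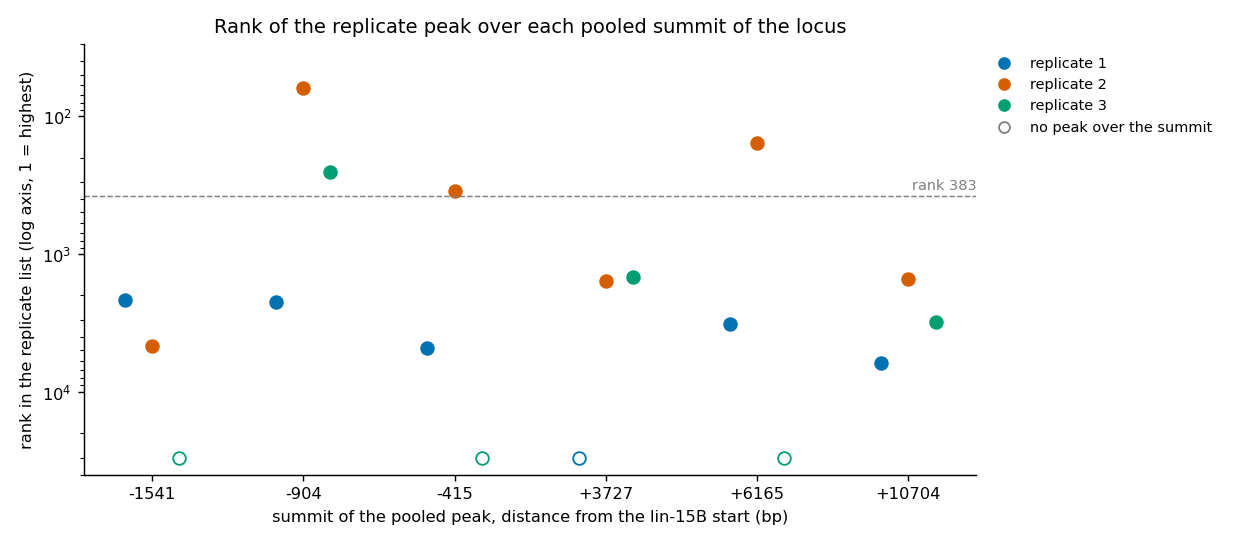
Rank in each replicate list (vertical axis, log scale, 1 at the top) of the peak over each of the 6 pooled summits, which are ordered by distance from the lin-15B start in bp. Open circles mark replicates with no peak over the summit and have no rank, and the dashed line is rank 383. Only the summits at -904 and 10704 were covered in all 3 replicates, and replicate 2 alone passed the line at -415 and 6165.

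The upstream region held 2 more pooled peaks. The peak at X 15725538 to 15725877, with its summit at -415, scored 19.4 and ranked 1039. It ranked 4832 in replicate 1 and 347 in replicate 2, and replicate 3 had no peak over the summit. The peak at X 15724412 to 15724751, at -1541, scored 19.8 and ranked 982, with replicate ranks of 2162 and 4622 in replicates 1 and 2 and again none in replicate 3. Replicate 3 had only 2 peaks in the region upstream of lin-15B, with summits at -952 (rank 256) and -730 (rank 495), against 3 in replicate 1 and 5 in replicate 2.

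The 3 upstream windows differ in base composition. The optimal window had 56.4% G+C and 12 CG dinucleotides, and the window at -415 had 63.4% and 14. The window at -1541 had 27.7% and 0 CG. The median was 47.5% G+C and 7 CG over nuclear optimal windows, and 36.6% and 3 over nuclear pooled windows. The optimal window of the locus exceeded 88.2% of nuclear optimal windows in G+C. Along the 2000 bp before lin-15B, 11 of 80 windows taken every 25 bp had over 50% G+C, and the median was 31.2%. The highest value, 65.3%, was at -400. A further stretch above 50% lay inside lin-15B, from 200 to 350 bp after the start, with up to 56.4% G+C, and no list had a summit there.

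**Figure D3:**
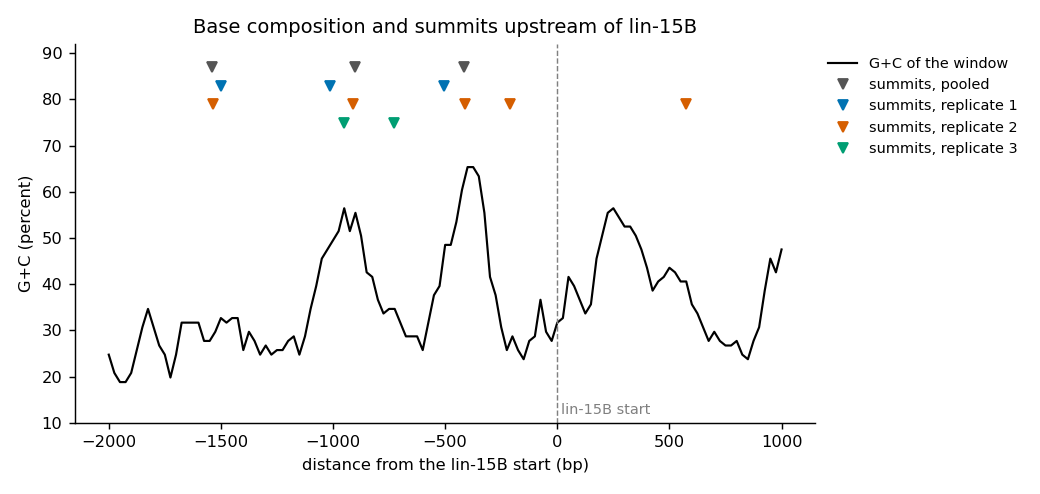
G+C content in percent of 101-bp windows taken every 25 bp (line) against distance from the lin-15B start in bp, with triangles at the summits of the pooled list and of replicates 1 to 3. Between -2000 and the start the line rises above 50% at 2 places, around -904 and -415, and a pooled summit and a replicate 2 summit lie at each. It is above 50% again from 200 to 350 bp after the start, where there is no summit.

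The optimal window held an E2F-type element, GCGCGAAA, whose first base lay 49 bp before the summit, and a run of GAGAGAGA starting 25 bp before it. GCGCGAAA occurred in 11 of 365 nuclear optimal windows (3.01%) and in 39 of 8618 nuclear pooled windows (0.453%). GAGAGAGA occurred in 3.56% of nuclear optimal and 1.35% of nuclear pooled windows. The tetramer CGCG had 5 matches in the optimal window and 5 in the window at -415, and 2.19% of nuclear optimal and 0.197% of nuclear pooled windows had at least 5. At least 1 match occurred in 54.8% of nuclear optimal and 14.1% of nuclear pooled windows. The window at -415 also held 1 match to TNNNGGCA, a core of the kind bound by a human THAP-domain protein, which is not in capitals above. That core is in 12.1% of nuclear optimal and 11.9% of nuclear pooled windows. TTTGAA was found in the windows at -904 (1) and -1541 (2), and in 20% of nuclear optimal and 27.2% of nuclear pooled windows. The region just before the lin-15B start had no match to GCGCGAAA, GAGAGAGA or CGCG in its 300 bases, and these were found in only 1.14%, 3.54% and 27.9% of the same stretches of all protein-coding genes. It had 29.3% G+C, against a median of 34.3% over the same stretch of all protein-coding genes. It held 3 TTTGAA matches, a motif found in 62.5% of such stretches. A match is a description of the letters, and binding by another factor was not measured.

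Inside lin-15B the pooled list held 1 peak, at X 15729680 to 15730019, with its summit in coding exon 5 at 3727. It scored 15.8 and ranked 2286. Replicates 2 and 3 placed it at ranks 1584 and 1466, with summits within 13 bp of the pooled one, and replicate 1 had no peak there. A second region in the gene, X 15727392 to 15728267 across coding exons 3 to 5, held a peak in all 3 replicates, at ranks 3409, 10060 and 1292, but no pooled peak. Its 3 summits lay at 1457, 1788 and 1945, up to 488 bp apart, so the replicates did not mark the same point. The remaining replicate peaks in the body of lin-15B ranked between 1426 and 23907.

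Inside lin-15A the pooled list held 1 peak, at X 15732118 to 15732457, with its summit in intron 1 at 6165, 320 bp after the lin-15A start. It scored 18.1 and ranked 1306. Replicate 1 ranked it 3243, with the summit 10 bp away in the same intron. Replicate 2 covered the pooled summit with 2 peaks. The higher, at rank 156 with a score of 18, had its summit 166 bp upstream in coding exon 1 of lin-15A, and the lower, at rank 5829, had its summit in intron 1. Replicate 3 had no peak over the summit, and its only peak with a summit inside lin-15A was in coding exon 3 at rank 6431. Replicate 2 is therefore the only list with a top-ranked peak inside either gene. The window of that peak, shown above, had 46.5% G+C and no match to the motifs in capitals, and it held 1 match to TNNNGGCA.

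Downstream of lin-15A the pooled peak at X 15736657 to 15736996, with its summit at 10704, lay in intergenic sequence beside the 3' end of srg-64. It scored 17.6 and ranked 1455, and all 3 replicates covered it, at ranks 6213, 1518 and 3093 in replicates 1, 2 and 3. With the optimal peak it makes 2 of 6 pooled summits of the locus covered in every replicate, where 20.4% of nuclear pooled summits were. The highest-ranked locus peak of replicate 1, rank 607 with a score of 9.28, was also in this stretch, at 10460. Replicate 1 thus had its highest-ranked locus peak after lin-15A, and replicates 2 and 3 had theirs before lin-15B.

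When overlapping replicate peaks were merged, the locus held 16 regions. Of these, 3 had a peak in all 3 replicates, 6 in 2 and 7 in 1 replicate. Of the regions with a peak in every replicate, the first ran over the 1166 bp from -1201 to -36, with both G+C-rich stretches. The others were the stretch over exons 3 to 5 of lin-15B and the stretch beside srg-64. Merging joins neighbours in a chain, so a base of such a region need not be covered in all 3 replicates. Replicate 3 had no peak over the summit at -415, and its peak at -730 ended at 15725592. Over exons 3 to 5 the replicate 1 peak ended at 15727767, before the replicate 3 peak began at 15727868. Replicate peaks covered 32.9%, 34.6% and 28.1% of the locus in replicates 1, 2 and 3, and pooled peaks 15.4%. Merged regions and covered shares were not measured for other windows of the genome, so these values have no background beside them. All 6 pooled peaks were in the upper 50% of the pooled list by score.

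The locus held more peaks than most windows of its length in each replicate list and in the pooled list. Windows of 13243 bp placed every 1000 bp over the nuclear chromosomes had a median of 4 peaks in each replicate and 1 in the pooled list. As many peaks as at the locus were found in 0.199%, 0.028% and 2.48% of such windows in replicates 1, 2 and 3 and in 0.624% for the pooled list. Median scores at the locus were also above those of the lists, at 5.38, 7.18 and 7.15 for the locus against 3.72, 5.32 and 3.49 for all peaks of replicates 1, 2 and 3, and 18.8 against 13.5 in the pooled list.

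Taken gene by gene, with 2000 bp on either side, lin-15B had an optimal peak and lin-15A did not, while 4.11% of all protein-coding genes had one. Both had pooled peaks, 5 for lin-15B and 3 for lin-15A, some of them shared, and 47.6% of genes had at least 1. By the highest pooled score lin-15B stood 326th of 19973 genes (1.63%) and lin-15A 2312th (11.6%). With gene bodies alone the order turned, with lin-15B 1506th and lin-15A 858th, and by the −log10 q-value lin-15B stood 1171st. In replicates 1, 2 and 3 lin-15B stood 3286th, 166th and 526th and lin-15A 1160th, 378th and 2387th. The order of the 2 genes therefore also differed in replicate 1, where the peak beside srg-64 falls in the window of lin-15A alone, and their replicate positions overlap.

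**Figure D4:**
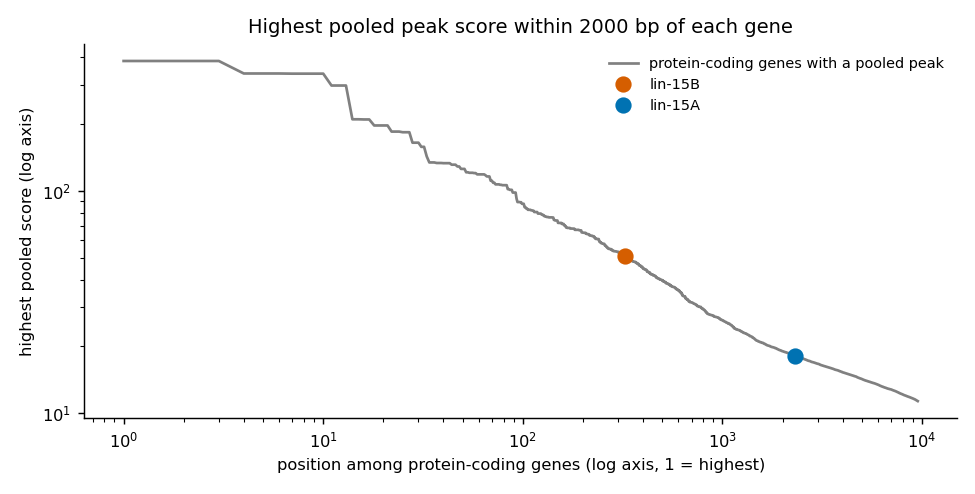
Highest pooled score within 2000 bp of each protein-coding gene with a pooled peak (vertical axis, log scale) against the position of the gene (horizontal axis, log scale, 1 = highest). lin-15B lies at position 326 with a score of 51.1 and lin-15A at 2312 with 18.1.

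Per kb of window, lin-15B had 1.01, 1.31 and 0.606 peaks in replicates 1, 2 and 3, and lin-15A had 0.946 in each, against a median of 0.318, 0.318 and 0.319 over all genes. In replicate 2, 15 genes including lin-15B (0.0751%) reached its density, while in replicate 3 15.4% did. Counting only the 383 highest-scoring peaks of replicate 2, lin-15B had 3 in its window, at -912, -412 and 5999, and no other of the 19973 genes had as many. At least 1 such peak was found at 3.89%, 4.09% and 3.87% of genes in replicates 1, 2 and 3. In the ce10 list of replicate 2 the peak over -415 ranked 939 instead of 347, which leaves 2 locus peaks among the 351 highest there, the length of the ce10 optimal list.

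Summits were then counted in 10-kb steps to either side of the genes. In the 10 kb before the lin-15B start, replicates 1, 2 and 3 had 8, 15 and 5 summits, of which 3, 5 and 2 belong to peaks already counted at the locus and 5, 10 and 3 lay left of it. For comparison, the median 10-kb tile of X had 3 and the highest tile 12, 13 and 11 in replicates 1, 2 and 3. The 15 of replicate 2 exceeded every tile of X. The 1771 tiles lie on a fixed grid, while this window was set at the gene start, so 10-kb windows of X placed otherwise were not compared. The gene bodies had 7.57, 9.74 and 4.33 summits per 10 kb, and the 10 kb after lin-15A had 6, 7 and 8 summits. Farther left, in the 4 steps from 50 kb to 10 kb before lin-15B, replicate 1 had 1, 1, 2 and 3 summits, replicate 2 had 6, 5, 4 and 6, and replicate 3 had 2, 2, 7 and 3. The 7 of replicate 3, in the step that starts 30 kb before lin-15B, exceeded the 5 it had next to the gene. From 20 to 40 kb after lin-15A, replicates 1 and 3 had 1 per step and replicate 2 had 2 and 4. The counts thus did not fall evenly with distance, and replicates 1 and 2 were highest in the 10 kb before lin-15B and replicate 3 in the 10 kb after lin-15A. From 50 kb before to 50 kb after the genes there were 39, 64 and 43 summits, a mean of 48.7 ± 13.4 (SD, n = 3), against medians of 36, 37 and 31 over spans of X of the same length. The share of such spans with at least as many was 33.8%, 0.17% and 5.62% in replicates 1, 2 and 3, and 3.07% for the 17 summits of the pooled list. The extent of the sequence carried on wgIs184 is not given in the sources used here, and its part in this density was not tested.

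**Figure D5:**
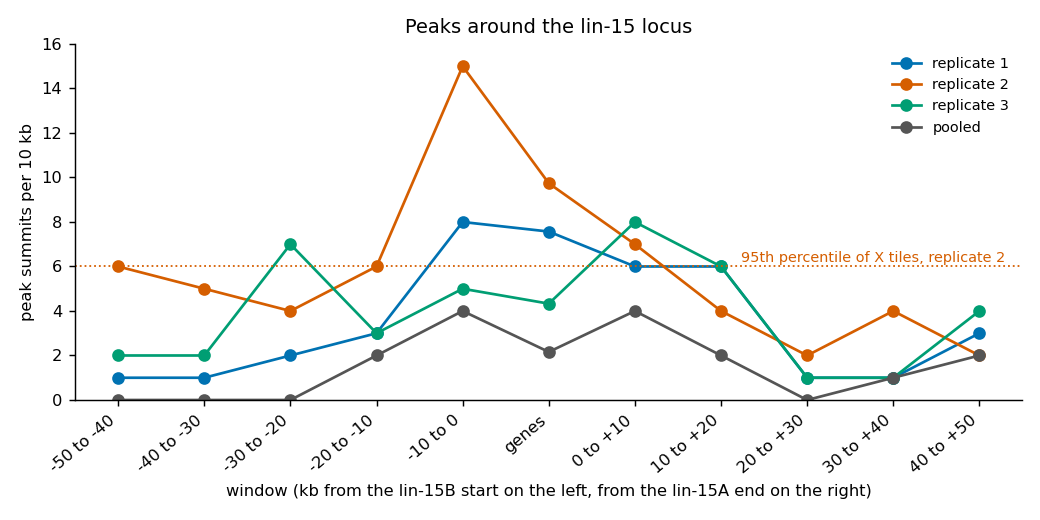
Peak summits per 10 kb (vertical axis) in 10-kb windows to the left of the lin-15B start, over the 2 genes and to the right of the lin-15A end (horizontal axis, kb), for replicates 1 to 3 and the pooled list. The dotted line is the 95th percentile of 10-kb tiles of X in replicate 2, and the replicate 2 line peaks at 15 in the 10 kb before lin-15B.

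One more optimal peak lay within 50 kb, and unlike the lin-15B peak it was top-ranked in every replicate. It was at X 15741859 to 15742198, 15906 bp after the lin-15B start, with a score of 70.2 and a pooled rank of 72. Its ranks were 94, 56 and 77 in replicates 1, 2 and 3. The summit lay 21 bp from the tRNA gene WBGene00014626 and 5 bp from the non-coding RNA gene ZK678.11, and it lay 581 bp before nhr-255, a nuclear hormone receptor gene.

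Among genes that act with lin-15 in vulval development, optimal peaks were found at 8 of 33 listed genes: lin-15B and 7 of the 31 genes outside the locus. The share over all protein-coding genes was 4.11%. The gene list was drawn up with earlier results of these data known, so neither this comparison nor the pooled one below is a test of the list. Such a peak can also lie within 2000 bp of another gene. Class A had 1 of 4, at lin-38 (score 44.2). Class B had 6 of 22, at lin-15B, lin-35 (32.4), which encodes the worm Rb-related protein, lin-9 (74.3), lin-53 (47.1), lin-54 (185.4) and the E2F gene efl-1 (29.2). lin-9, lin-53, lin-54, efl-1 and lin-35 encode subunits of the DREAM complex, a repressor of cell cycle and germline genes. Its other listed subunit genes had no optimal peak: lin-37 and lin-52 had 2 pooled peaks each, with highest scores of 27.7 and 13.5, and dpl-1 had 0. Class C had 1 of 4, the histone acetyltransferase complex gene epc-1 (30.2). The vulval signalling genes lin-3, let-23 and let-60, which encode an EGF-type ligand, its receptor and Ras, had 0 of 3. Pooled peaks were found at 30 of the 33 genes, where 47.6% of all protein-coding genes had one. The median highest pooled score over those 30 was 16.8, against 14.5 over all protein-coding genes with a pooled peak. The optimal summits of the other 7 genes lay between -368 and -106 bp from their gene starts, all closer than the -904 of lin-15B. Those 7 genes are all on autosomes, and the median distance for optimal peaks on X was 904.0 bp.

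The ce10 lists gave the same picture in the pooled calls. The 6 pooled peaks were matched to nearby ce10 peaks by a score within 0.1%, so agreement of the scores is the matching rule. Each match lay at a position lower by 68 bases, which keeps the spacing, and the optimal peak was again at rank 143. With the locus window moved by the same 68 bases, the counts were again 1, 6, 12, 15 and 10 in the optimal, pooled and replicate lists. Over the optimal summit the ce10 ranks were 2152, 98 and 212 in replicates 1, 2 and 3. Single weaker sites moved more, such as the one at -1541, which ranked 9702 in replicate 1 on ce10 against 2162 on ce11. The highest-ranked locus peak of replicate 1 was at rank 1422 on ce10 against 607 on ce11.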

How the data were processed

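Per the labels, LIN-15B carrying a GFP-FLAG tag was mapped by ChIP-seq in whole L4 larvae. Per the deposited descriptions, the authors called peaks for each replicate and for the pool against a control alignment. These lists, named as peaks and background, were the input of a reproducibility step that gave the optimal list. The sources used here do not name the aligner or the caller. The deposited lists give a score, the authors' signal value, used for ranking within a list, and the −log10 of the q-value, used as an alternative ranking. The depth behind each list is unknown, and with it the precision of a single rank. The SD over replicates is the only error, and it may be partly technical, since the labels do not say how cultures were kept apart.

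Peaks, genes (Ensembl release 115, WBcel235) and sequence (RefSeq, the same assembly) were joined on ce11 coordinates with Python 3.11.15, numpy 2.4.6, pandas 2.3.3 and matplotlib 3.10.9, and the overlap rules were tested on simulated data. Mitochondrial peaks were left out of the comparisons between genes and windows. The genes, gene lists and motifs were chosen with earlier results of these data known. Named genes are the 2 members, the nearest protein-coding genes, listed pathway genes with an optimal peak and genes at the 5 optimal peaks most alike in replicate ranks. The genes named at the second optimal peak within 50 kb, and unc-119 in the closing section, were chosen after their values were seen. Alternatives changed the flank, the overlap rule, the ranking, the list depth, the build and the replicates.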

Additional observations from a re-analysis of the deposited data

How the results depend on the processing

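Of 53 alternatives over 9 results, 41 stayed within 1.5 times the value given or within 1 SD, and 12 moved further. With gene bodies only, without the flanks, the locus had 0 optimal and 2 pooled peaks, a mean of 7 replicate peaks and a best pooled rank of 1306, since the upstream peaks were then left out; lin-15B stood at position 1506 and lin-15A at 858 among genes. Ranked by the −log10 q-value, the best pooled rank was 583 and lin-15B stood at position 1171; the cause was not tested. With 50% as many top peaks, 1 replicate had a top-ranked peak over the optimal summit, and with each replicate left out in turn 1 to 2 had one, 1 without replicate 2 and 1 without replicate 3. The geometric mean rank of the optimal peak was 127.0 to 754.0 with each replicate left out. These alternatives are counted as kept, but leaving out 1 of 3 values cannot move their mean by 1 SD. The rule therefore could not show a move here, and the range is wide. With the upper 50% of each list, the mean number of summits within 50 kb was 30.7. No paired analysis was possible because there is 1 group. The unknown depth of each replicate limits the reading of ranks that differ between replicates.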

Other observations

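unc-119, on chromosome III, is the gene mutated by tm4063 in strain OP184. It had 0 optimal and 0 pooled peaks within 2000 bp. Replicates 1, 2 and 3 placed 11, 1 and 5 peaks there, which is 1.07, 0.0971 and 0.486 per kb, with best ranks of 8560, 5492 and 1572. In replicate 1, 0.591% of protein-coding genes had at least that density, and in replicates 2 and 3 86.9% and 26% had. At lin-15B replicate 2 was the densest of the 3 instead, at 1.31 per kb against 1.01 in replicate 1 and 0.606 in replicate 3. The lists hold no reads and the extent of the sequence on wgIs184 is not given, so the source of the unc-119 peaks was not tested.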
